A study of Mus musculus with 6 samples.

Results

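RNA from whole ovaries of 16.5 dpc C57BL/6 mice was examined for 10 genes of BMP and activin signalling. The genes were taken from the deposited table by gene name, and all 10 were found among its 54532 genes. They are the BMP ligands *Bmp2*, *Bmp4* and *Bmp7*, the inhibin and activin subunits *Inha*, *Inhba* and *Inhbb*, the antagonist *Fst*, the receptors *Bmpr1a* and *Bmpr2*, and the target gene *Id1*. The 6 libraries were 3 Ctrl, whose genotype is given in the labels as wild type, and 3 cKO, in which the *Stra8-GFPCre* transgene deletes part of *Srsf1*, a splicing factor gene, in germ cells from the start of meiosis. The somatic cells of a cKO ovary keep *Srsf1*, and each library mixed RNA of both kinds of cell. The strain, age and tissue were the same in both groups. The sources used here do not give the number of ovaries behind a library. The extraction text of the labels names another tissue, whereas the tissue field and the study's methods name ovary.

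BMPs and activins are secreted dimers of the TGF-beta family. They join type I and type II receptor kinases on the receiving cell. BMP receptors phosphorylate one set of Smad proteins, and activin receptors phosphorylate another. In the fetal and adult ovary these signals pass between germ cells and the somatic cells around them, and *Bmp2* and *Fst* are known as genes of female supporting cells downstream of the factors that set ovarian fate. Activins are dimers of beta subunits, inhibins pair a beta subunit with the alpha subunit, and follistatin traps activin outside the cell.

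The depth was between 14212164 and 16784241 reads on genes per library, worked out from the FPKM values. *Srsf1* had an FPKM of 80.2, 70.1 and 63.1 in Ctrl 1, 2 and 3 against 32.4, 37.0 and 36.4 in cKO 1, 2 and 3, so the labels of all 6 libraries fit the deleted gene. Of the markers of germ cells and of pregranulosa cells, 10 of 10 and 10 of 10 reached a mean FPKM of 0.5, the minimum for testing. The mean log2(FPKM + 1) of the germ cell markers was 3.96, 4.72 and 5.52 in Ctrl against 5.69, 4.54 and 5.93 in cKO, so Ctrl 1 was the lowest and cKO 2 the lowest of its group. That of the pregranulosa markers lay between 5.23 and 5.64, highest in cKO 2. In bulk RNA, fewer cells of a type and less RNA per cell cannot be told apart.

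With all 6 libraries, none of the 10 genes differed between cKO and Ctrl ovaries past the limit of the tests. In limma on log2(FPKM + 1), 0 of the 10 passed an unadjusted p below 0.05, the limit used in the study, where 4.43% of the 17180 genes tested did (2.68% higher and 1.75% lower in cKO). Over all genes, 761 passed this limit and 0 passed a Benjamini-Hochberg adjusted p below 0.05 in limma, and 724 passed the unadjusted limit under limma voom on the reads. Under voom, 0 of the 10 passed as well, beside 4.21% of all genes tested. In all 10, values of the Ctrl and cKO libraries overlapped, while the groups did not overlap in 8.68% of the genes tested (4.59% higher and 4.1% lower in cKO). Log2 fold changes of the 10 genes ran from -0.28 in *Id1* to 0.32 in *Inhbb*, with a median of 0.08 beside -0.01 over all genes tested. Of the 10, 8 were above 0, beside 47.9% of all genes tested. On this scale a fold change understates the change of genes with a low FPKM. All 10 of the 95% intervals lay inside -1 to 1 in limma, and also under voom, which uses no pseudocount of 1. This bounds the difference on the log2 scale but does not show that the levels were equal.

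**Figure D1:**
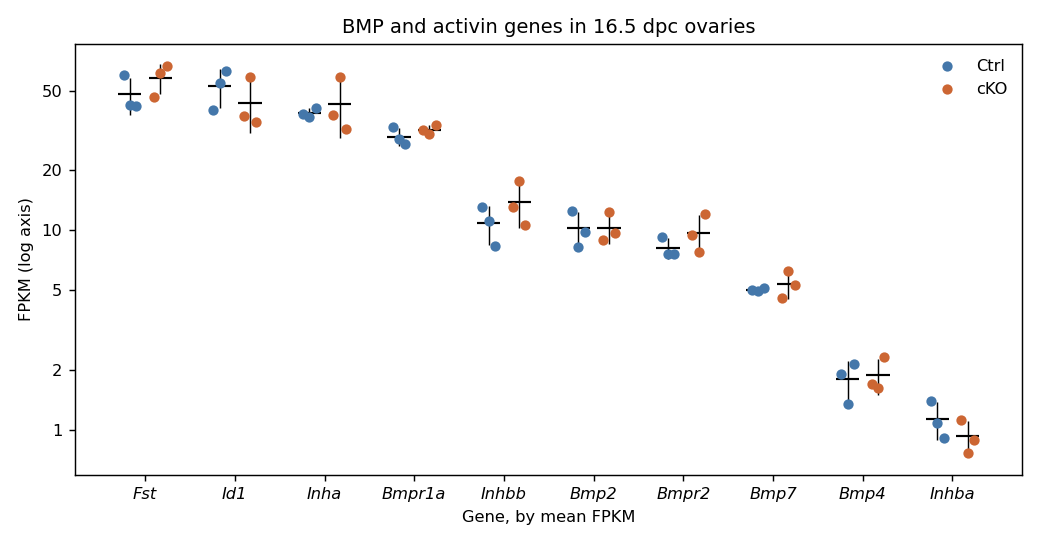
FPKM (log axis) of the 10 genes in each Ctrl (blue) and cKO (orange) library, ordered by mean FPKM, with libraries 1, 2 and 3 from left to right in each group. Horizontal bars are group means and vertical bars 1 SD (n = 3). *Fst* is highest and *Inhba* lowest, and in every gene the points of the groups overlap.

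The levels of the 10 genes spanned a wide range. FPKM divides the reads by the gene length in the deposited table, so the order of the genes depends on that length. Mean FPKM over the 6 libraries was 53.4 ± 10.8 (SD, n = 6) for *Fst*, 48.4 ± 12.2 for *Id1*, 41.0 ± 9.19 for *Inha* and 30.8 ± 2.53 for *Bmpr1a*. These 4 genes stood above the 90th percentile of the genes tested. A middle group held *Inhbb* at 12.4 ± 3.17, *Bmp2* at 10.3 ± 1.78, *Bmpr2* at 8.97 ± 1.71 and *Bmp7* at 5.21 ± 0.557. The lowest were *Bmp4* at 1.84 ± 0.357 and *Inhba* at 1.03 ± 0.223. Neighbours in this order were compared by their log2 ratio within each library, with an exact sign-flip permutation test over the 6 libraries. The order came from the means of these same 6 libraries, so the p-values are not an independent test of it. *Bmpr1a* was above *Inhbb*, *Bmpr2* above *Bmp7*, *Bmp7* above *Bmp4* and *Bmp4* above *Inhba* in 6 of 6 libraries. Each of these 4 gaps gave p = 0.03125, the smallest the exact test allows, and an adjusted p of 0.0703 over the 9 pairs of neighbours, above 0.05. The steps were 2.55-fold, 1.71-fold, 2.87-fold and 1.79-fold. The other neighbours changed places in at least 1 library, with adjusted p between 0.112 for *Inha* over *Bmpr1a* and 0.531 for *Fst* over *Id1* in the same exact test.

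Among the BMP ligands, *Bmp2* was the most abundant and *Bmp4* the least. *Bmp2* (chromosome 2, 133552159 to 133562885, GRCm38) had an FPKM of 12.6, 8.27 and 9.84 in Ctrl 1, 2 and 3 against 8.97, 12.3 and 9.71 in cKO 1, 2 and 3. The highest values of both groups nearly coincided, and the log2 fold change was 0.02 (standard error 0.19, adjusted p = 0.995 in limma). *Bmp7* (chromosome 2, 172868012 to 172940321), a ligand widely used by epithelia, was at 5.01, 4.99 and 5.13 in Ctrl against 4.57, 6.23 and 5.33 in cKO. The 3 Ctrl values of *Bmp7* were nearly equal (coefficient of variation 1.44%), and the cKO values lay on both sides of them (15.4%). The difference in log2 was 0.07, with a 95% interval of -0.25 to 0.39.

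*Bmp4* (chromosome 14, 46383520 to 46390669), a ligand that induces germ cells in the early embryo, was at 1.90, 1.35 and 2.14 in Ctrl against 1.70, 1.62 and 2.32 in cKO. These values rest on 49 to 84 reads per library. For Ctrl 2, with the fewest, the exact Poisson interval of the FPKM was 0.996 to 1.78, and it covers counting error only. The highest library of either group, Ctrl 3 and cKO 3, differed less from each other than from the rest of their own group. The exons of *Bmp4* overlap those of *Gm15217* on the other strand, and the sources used here do not give the strand setting of the counting. The log2 fold change was 0.04 (interval -0.37 to 0.46), and 0.06 under voom (interval -0.62 to 0.74).

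Of the subunits that build inhibin and activin, the alpha subunit was highest, the beta-B subunit lower and the beta-A subunit lowest in every library. *Inha* (chromosome 1, 75507077 to 75510366), the alpha subunit, had an FPKM of 38.5, 37.1 and 41.3 in Ctrl against 38.0, 58.9 and 32.5 in cKO. The Ctrl values were close together, and cKO 2 alone stood above all the others while cKO 3 was below them. The coefficient of variation was 5.47% in Ctrl against 32.3% in cKO. With all libraries the log2 fold change was 0.10 (interval -0.42 to 0.62), and without cKO 2 it was -0.14.

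*Inhbb* (chromosome 1, 119415465 to 119422248), the beta-B subunit, was at 13.1, 11.1 and 8.38 in Ctrl against 13.2, 17.7 and 10.7 in cKO. Here too cKO 2 was the highest library, while the lowest was Ctrl 3. With all libraries *Inhbb* had the largest log2 fold change of the 10 genes, 0.32 (standard error 0.22, interval -0.21 to 0.85), and an adjusted p of 0.978 in limma. The value fell to 0.14 without cKO 2 and to 0.16 without Ctrl 3, and was 0.48 without cKO 3. Without cKO 2, *Id1* (-0.51), *Bmpr2* (0.35) and *Fst* (0.23) were each further from 0 than *Inhbb*. So, by little, were *Bmpr1a* (0.147) and *Inha* (-0.143), beside 0.139 for *Inhbb*. Summed FPKM of the pregranulosa markers was also highest in cKO 2, at 713 beside 512 to 630 in the other 5 libraries, and 10 of the 10 markers were tested. These markers include *Amhr2*, a receptor gene of the same pathway, itself highest in cKO 2 at 183 FPKM beside 106 to 160 elsewhere. Likewise the summed FPKM of the 8 markers of steroid-producing and adrenal cells was 129 in cKO 2 beside 61.2 to 113 elsewhere, with 3 of the 8 (*Cyp11a1*, *Cyp11b1* and *Cyp21a1*) under the minimum FPKM. The marker sums of mesonephros (62.3 beside 41.2 to 52.9), endothelium (90.4, closely followed by Ctrl 1) and immune cells (66.0 beside 35.0 to 63.4) were highest in cKO 2 as well. Those of stroma (519 in Ctrl 1 beside 441 in cKO 2), surface epithelium (190 in Ctrl 3 beside 183) and Sertoli cells (8.01 in Ctrl 3 beside 7.34) were not. Nor were those of germ cells (902 in cKO 3 beside 311 in cKO 2) and red blood cells (22981 in Ctrl 1 beside 10412 in cKO 2). The part of these cell types in the values of *Inha* and *Inhbb* was not tested.

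*Inhba* (chromosome 13, 16011851 to 16031621), the beta-A subunit, was at 1.40, 1.08 and 0.914 in Ctrl against 1.12, 0.765 and 0.893 in cKO. The ranges of the groups overlapped, with cKO 2 the lowest, and each value rests on 81 to 134 reads. In log2 the difference was -0.14 (interval -0.53 to 0.24), and -0.28 (interval -0.89 to 0.33) under voom. Leaving out a library gave -0.055 without Ctrl 1, -0.082 without cKO 2 and -0.22 without Ctrl 3 or cKO 1. The remaining beta subunits, *Inhbc* and *Inhbe*, had a mean FPKM of 0.0285 and 0.0166 and were not tested.

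The set of RefSeq (GRCm38.p6) promoter windows used here held 6 of the 10 genes, namely *Bmp4*, *Inha*, *Inhba*, *Inhbb*, *Bmpr1a* and *Bmpr2*. Those of both beta subunits are shown because these genes make the activins and their ratio is described next. Each line gives the 250 bases before the RefSeq start on the gene's strand, chr13:16011601-16011850 (plus strand) for *Inhba* and chr1:119422249-119422498 (minus strand) for *Inhbb*, with matches to the motifs below in capitals.
Inhba: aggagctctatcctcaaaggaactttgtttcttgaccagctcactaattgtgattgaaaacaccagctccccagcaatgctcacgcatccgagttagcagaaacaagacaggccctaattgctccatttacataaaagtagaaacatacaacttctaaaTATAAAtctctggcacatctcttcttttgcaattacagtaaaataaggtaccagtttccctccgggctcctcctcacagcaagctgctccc
Inhbb: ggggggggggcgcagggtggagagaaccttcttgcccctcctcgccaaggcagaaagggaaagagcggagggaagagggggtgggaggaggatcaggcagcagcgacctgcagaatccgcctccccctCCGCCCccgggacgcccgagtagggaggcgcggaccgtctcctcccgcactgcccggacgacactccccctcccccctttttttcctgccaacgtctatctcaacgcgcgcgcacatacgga
In *Inhba* the capitals mark TATAAA, the core of a TATA box, whose first base lies 91 bases before the start. In *Inhbb* they mark GGGCGG, the GC box, on the reverse strand, 122 bases before the start. Both strands were searched, and 12.4% and 32.7% of the 32851 windows in this set held these motifs. The GC content was 43.2% in the *Inhba* window and 68.0% in that of *Inhbb*. GGCGCC, the core of a GC-rich element bound by BMP-activated Smads, was found in neither of these windows. It was present in those of *Bmpr1a* and *Bmpr2*, and in 9.59% of all windows. AAGGTCA, a site for NR5A receptors, and TGACGTCA, the cAMP response element, were in none of the 6 windows, beside 4.08% and 1.55% of all windows. The RefSeq starts of *Inha*, *Bmpr1a* and *Bmpr2* lie 532, 795 and 879 bases inside the gene as the deposited table gives it. A match is a string of letters in a window, and these libraries hold no measure of binding.

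Ratios between genes within a library do not depend on how the library was scaled. For 7 ratios, cKO was compared with Ctrl by an exact two-sided permutation test, for which 3 libraries against 3 give a smallest p of 0.1. The FPKM of *Inhba* was 0.107, 0.0976 and 0.109 times that of *Inhbb* in Ctrl 1, 2 and 3 against 0.0853, 0.0431 and 0.0835 times in cKO 1, 2 and 3. All cKO ratios were below all Ctrl ratios, with cKO 2 the lowest by far. Among single genes, 4.1% had groups apart in this direction and 8.68% in either direction. No such share was worked out for ratios. The difference was -0.63 on the log2 scale (exact permutation p = 0.1, the smallest possible, and 0.7 after adjustment over the 7 ratios), so it did not pass the test. Without cKO 2 it was -0.31, and without another library it was between -0.80 and -0.60. In the 6 other ratios the groups overlapped. *Inha* over *Inhbb* ranged from 2.94 to 4.92 in Ctrl and from 2.89 to 3.32 in cKO, and *Bmp2* over *Bmp4* from 4.60 to 6.63 and from 4.19 to 7.63. *Inhbb* over *Fst*, which sets an activin subunit beside its antagonist, was 0.200 to 0.259 in Ctrl against 0.160 to 0.287 in cKO.

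**Figure D2:**
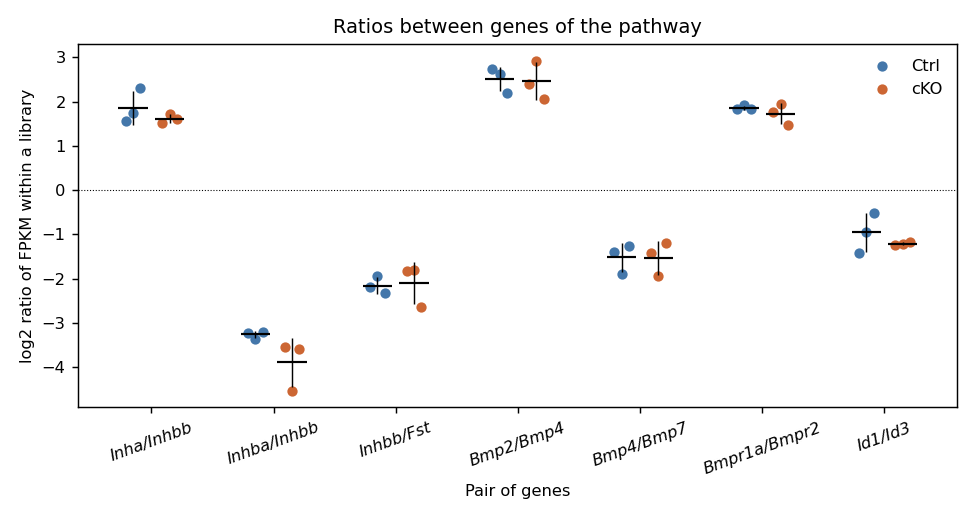
Log2 ratio of FPKM of 7 pairs of genes within each Ctrl (blue) and cKO (orange) library, with libraries 1, 2 and 3 from left to right in each group. Horizontal bars are group means and vertical bars 1 SD (n = 3). The groups are apart for *Inhba* over *Inhbb* alone, where the lowest point is cKO 2.

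*Fst* (chromosome 13, 114452290 to 114458951) encodes follistatin, the antagonist that binds activins and, more weakly, some BMPs. Its FPKM was 60.0, 42.8 and 41.9 in Ctrl against 47.0, 61.8 and 66.7 in cKO. A pair of cKO libraries lay above all Ctrl libraries, but cKO 1 was below Ctrl 1. The mean was 48.2 ± 10.2 (SD, n = 3) in Ctrl against 58.5 ± 10.3 in cKO, and the difference in log2 was 0.28 (standard error 0.20, interval -0.19 to 0.75, adjusted p = 0.978 in limma). It was 0.44 without Ctrl 1, 0.42 without cKO 1 and 0.18 without cKO 3. Its exons overlap the antisense gene *Gm47040*.

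Both receptors were well detected in all 6 libraries. *Bmpr1a* (chromosome 14, 34410734 to 34503341), a type I receptor for BMPs, was at 32.9, 28.8 and 27.1 in Ctrl against 31.9, 30.3 and 33.7 in cKO. It varied least of the 10 genes, with a highest value 1.24 times the lowest, and its log2 fold change was 0.11 (interval -0.17 to 0.40), between 0.052 without Ctrl 3 and 0.19 without Ctrl 1, and 0.074 without cKO 3. Its exons overlap the antisense gene *Gm17110*. *Bmpr2* (chromosome 1, 59763400 to 59879014), the type II receptor, was at 9.27, 7.63 and 7.62 in Ctrl against 9.43, 7.82 and 12.0 in cKO. The highest value was that of cKO 3, and the others of both groups shared one range. The log2 fold change was 0.22 (standard error 0.17, interval -0.20 to 0.63). It was 0.069 without cKO 3 and 0.35 without cKO 2. *Bmpr1a* stood at 3.55 to 3.78 times *Bmpr2* in Ctrl and at 2.80 to 3.88 times in cKO (exact permutation p = 0.5 for the difference). The size of these ratios depends on the gene lengths, 6351 bases for *Bmpr1a* and 17983 for *Bmpr2*. In reads, *Bmpr1a* had 2961 to 3234 per library and *Bmpr2* had 2221 to 3074.

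*Id1* (chromosome 2, 152736251 to 152737410) encodes an inhibitor of bHLH factors and is a direct target of BMP-activated Smads in many cells. It had an FPKM of 40.4, 54.8 and 63.4 in Ctrl against 37.6, 59.0 and 34.9 in cKO. In cKO 1 and cKO 3 it was below every Ctrl library, whereas cKO 2 lay inside the Ctrl range. The log2 fold change was -0.28 (standard error 0.25, interval -0.87 to 0.31, adjusted p = 0.978 in limma). Without cKO 2 it was -0.51 and passed the limit (unadjusted p = 0.0491 in limma). It was -0.46 without Ctrl 1 and -0.14 without Ctrl 3 or without cKO 3 (unadjusted p = 0.119, 0.629 and 0.626 in limma). In the fit without cKO 2, 14.5% of all genes tested passed and 6.03% passed with a lower level in cKO, and *Id1* was the 1 gene of the 10. *Id3*, a related target, was at 107, 105 and 90.2 in Ctrl against 88.6, 137 and 78.6 in cKO. Within cKO, both genes were low in cKO 1 and cKO 3 and high in cKO 2. Within Ctrl they ran opposite ways, as *Id1* rose from Ctrl 1 to Ctrl 3 while *Id3* fell. The log2 fold change of *Id3* was -0.03 (interval -0.55 to 0.49). The ratio of *Id1* to *Id3* was 0.376, 0.520 and 0.703 in Ctrl and between 0.425 and 0.444 in cKO.

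**Figure D3:**
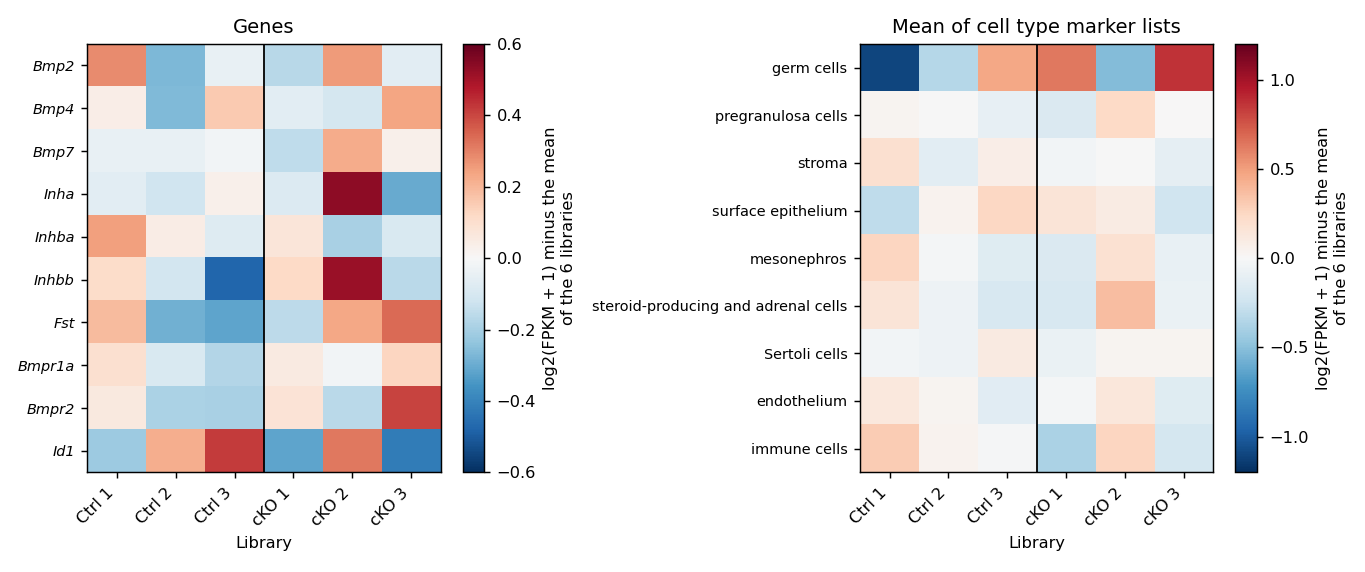
Left, log2(FPKM + 1) of the 10 genes in each library, minus the mean of the 6 libraries (colour scale from -0.6 to 0.6). Right, the same for the mean of cell type marker lists (colour scale from -1.2 to 1.2), without the red blood cell list. A black line parts Ctrl from cKO. *Inha* and *Inhbb* are highest in cKO 2, *Id1* is low in Ctrl 1, cKO 1 and cKO 3, and the germ cell list varies most of those shown, from 3.96 in Ctrl 1 to 5.93 in cKO 3. The red blood cell list varied more, from 6.56 in cKO 1 to 9.53 in Ctrl 1.

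The 10 genes did not share one order of libraries. The highest value was in cKO 3 for 4 genes (*Bmp4*, *Fst*, *Bmpr1a* and *Bmpr2*), in cKO 2 for 3 (*Bmp7*, *Inha* and *Inhbb*), in Ctrl 1 for 2 (*Bmp2* and *Inhba*) and in Ctrl 3 for *Id1*. Ctrl 3 was the lowest library for 4 genes, namely *Fst*, *Inhbb* and both receptors. Over all genes tested, the highest value was in cKO 3 for 17.8% and in cKO 2 for 22.3%, and the lowest in Ctrl 3 for 11.9%. From lowest to highest library, the values of single genes spread between 1.24-fold (*Bmpr1a*) and 2.12-fold (*Inhbb*).

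Beyond these 10 genes, a list of 71 other genes of the pathway was read in the same fit. Of these, 48 reached the minimum FPKM and 0 passed an unadjusted p below 0.05, in limma or under voom. Log2 fold changes ran from -0.46 to 0.31 with a median of -0.01, and 23 of the 48 were above 0. The groups did not overlap in 3 of the 48, beside 8.68% of all genes tested. These were *Gdf9*, an oocyte ligand, *Bmper*, which binds BMPs outside the cell, and *Sostdc1*, a BMP antagonist. Their log2 fold changes were 0.22, 0.26 and -0.27 in limma, and 0.40, 0.38 and -0.60 under voom. None of them passed (exact permutation p = 0.1 for each, the smallest possible). Counts were low for *Sostdc1* (13 to 35 reads per library) and *Gdf9* (27 to 48 reads).

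By role, 0 of 8 further ligands, 0 of 10 antagonists, 0 of 11 receptors, 0 of 6 Smads, 0 of 7 inhibitors inside the cell and 0 of 6 targets passed. The further ligands with the highest mean were *Gdf10*, at 8.64 ± 1.75 FPKM (SD, n = 3) in Ctrl against 6.64 ± 0.289 in cKO (log2 fold change -0.32, interval -0.71 to 0.07), *Gdf11*, at 6.72 ± 0.571 and 6.17 ± 2.41, and *Bmp6*, at 3.61 ± 0.660 and 3.69 ± 0.128. *Amhr2*, the receptor for anti-Müllerian hormone, was the highest receptor, at 144 ± 19.7 FPKM (SD, n = 3) in Ctrl against 139 ± 39.8 in cKO. Its ligand *Amh* was at 1.70 ± 0.594 and 1.39 ± 0.486. *Eng*, a co-receptor found on endothelium, was at 20.4 ± 3.62 and 17.6 ± 2.5. *Twsg1*, which binds BMPs outside the cell, was as abundant as *Fst*, at 52.8 ± 4.62 and 54.3 ± 2.02. *Nbl1* and *Bambi*, which block BMP signals, were at 27.6 ± 2.09 and 16.4 ± 3.31 in Ctrl against 23.5 ± 7.45 and 14.3 ± 4.48 in cKO. *Nog*, which encodes the antagonist noggin, stayed under the minimum at a mean of 0.437. Of the activin receptors, *Acvr1b* was at 10.2 ± 0.361 in Ctrl against 10.8 ± 2.46 in cKO. *Acvrl1*, a type I receptor of endothelium, was at 9.05 ± 0.872 and 9.52 ± 2.38.

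The Smads carry the signal to the nucleus. *Smad5*, which answers to BMPs, was at 41.3 ± 3.04 in Ctrl against 46.4 ± 3.64 in cKO, and *Smad3*, which answers to activin, at 33.2 ± 1.73 and 37.7 ± 4.90. *Smad2*, which also answers to activin, was at 18.5 ± 1.51 and 21.8 ± 3.69. The shared partner *Smad4* was at 31.9 ± 0.448 and 34.6 ± 3.09. *Ski*, a repressor of Smads, was among the steadiest, at 36.4 ± 0.390 and 35.8 ± 0.242. The ubiquitin ligases *Smurf2* and *Smurf1* were at 16.0 ± 0.384 and 10.2 ± 0.368 in Ctrl against 19.1 ± 2.51 and 9.41 ± 0.966 in cKO, and the inhibitory Smad *Smad6* at 9.93 ± 1.60 and 10.1 ± 2.92. Of the targets, *Id3* and *Id2* led at 101 ± 9.36 and 56.2 ± 6.25 in Ctrl against 101 ± 31.1 and 60.3 ± 10.2 in cKO. *Msx1*, a homeobox gene induced by BMPs, was at 11.5 ± 1.44 and 14.8 ± 3.76, a log2 fold change of 0.31 (interval -0.17 to 0.78), and *Atoh8*, a bHLH gene, at 4.36 ± 0.710 and 4.09 ± 1.60.

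**Figure D4:**
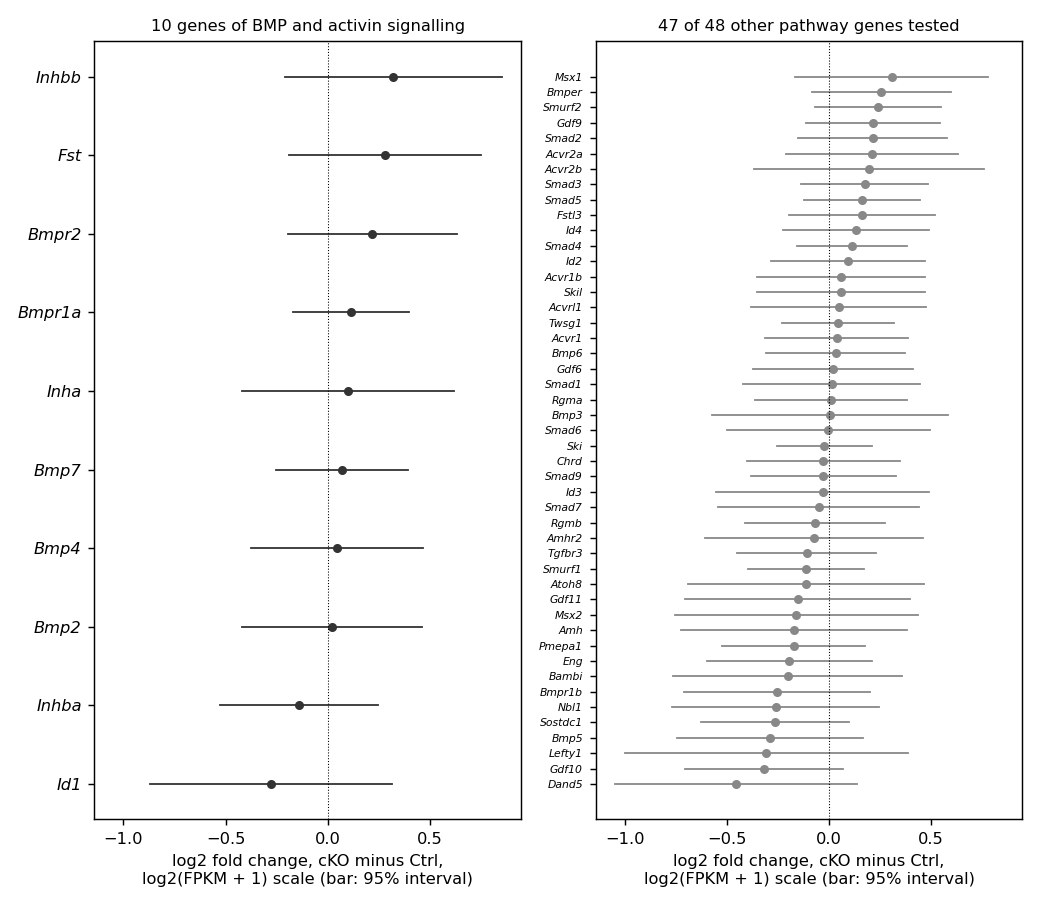
Log2 fold change (cKO minus Ctrl, on the log2(FPKM + 1) scale) with its 95% interval from limma for the 10 genes (left) and for 47 of the 48 other pathway genes tested (right). Every interval includes 0, and those of the 10 genes stay inside -1 to 1.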

How the data were processed

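Paired-end mRNA reads of 3 Ctrl and 3 cKO ovary libraries were aligned by the authors to GRCm38 with HISAT2 2.0.5 and counted per gene with featureCounts, and they deposited FPKM values. The sources used here do not give the annotation release. Read counts were recovered from FPKM and gene length, with 100% of the values of each library whole to within 0.05 of a read, and were used for voom. No 2 libraries held the same values.

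Genes with a mean FPKM of 0.5 or more over the 6 libraries (17180) were fitted on log2(FPKM + 1) with limma 3.58.1 (R 4.3.3), two-sided, with an intensity trend, group as the only term and Benjamini-Hochberg adjustment over all genes tested. The fit was also run on simulated libraries with the same spread setting for all genes and no difference in cell mixture between libraries. That run therefore does not show how the fit handles the libraries used here. Single genes and ratios were compared with exact permutation tests. Named genes were *Srsf1*, the 10 genes, pathway genes past the limit, and in each role up to 4 with the highest mean FPKM. One of these is not reported here. *Gdf9*, *Bmper*, *Sostdc1*, *Nog*, *Inhbc* and *Inhbe* were partly named after their values were seen. The genes and lists were chosen with earlier results of these data known. Motifs were chosen after the values were seen. Coordinates match GENCODE M21 for 10 of 10 genes. Tables were read in Python 3.11.15 with pandas 2.3.3.

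Alternatives were pseudocounts of 0.1 and 0.5, an FPKM minimum of 1 or none, scaling by median ratios, quantile normalization, voom with the authors' library sizes, a fit without the intensity trend, a block for the replicate number and leaving out each library.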

Additional observations from a re-analysis of the deposited data

How the results depend on the processing

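Under every planned change of pseudocount, minimum FPKM, scaling, variance model or block, 0 of the 10 genes and 0 of the other pathway genes passed the unadjusted limit, and all 10 kept the sign of their log2 fold change. With all genes counted and no minimum FPKM, 1331 genes passed instead of 761, because more genes were tested (33797 instead of 17180). With each library left out in turn, between 364 and 2493 genes passed, the most without cKO 2, and between 0 and 4 passed an adjusted p below 0.05, the 4 without Ctrl 1. Of the 10 genes, between 0 and 1 passed (*Id1* without cKO 2), and of the other pathway genes between 0 and 6. The 6, of 48 tested, were *Nbl1*, *Smad2*, *Smurf2*, *Pmepa1*, *Gdf11* and *Dand5* without cKO 2. *Gdf10* passed without Ctrl 2, *Lefty1* without Ctrl 3 and *Msx1* without cKO 1. Among all 17180 genes tested, 2493 (14.5%) passed without cKO 2, 364 without Ctrl 2, 1176 without Ctrl 3 and 441 without cKO 1. Signs turned in these fits for the BMP ligands and *Inha*. The log2 fold change ran from -0.11 to 0.17 for *Bmp2*, from -0.076 to 0.13 for *Bmp4*, from -0.026 to 0.16 for *Bmp7* and from -0.14 to 0.28 for *Inha*. For *Srsf1* it stayed between -1.07 and -0.90. Same-numbered libraries of the groups did not deviate together (correlations across genes of -0.389, -0.03 and 0.117 for numbers 1, 2 and 3), and the best partner of Ctrl 1 was cKO 2 (0.35). These correlations gave no sign of pairing by number, but with 3 libraries per group they cannot exclude it. With the replicate number as a block, 681 genes passed, 434 higher and 247 lower. Among the 10 genes, depth limits *Bmp4* and *Inhba* most, with 49 to 134 reads per library. Some other pathway genes named above had fewer, such as *Sostdc1* with 13 to 35.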
